A study of Mus musculus with 8 samples.

Results

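The genes examined here are the mouse DNA methylation writers and erasers: Dnmt1, Dnmt3a, Dnmt3b and Uhrf1 on the writing side, and Tet1, Tet2 and Tet3 on the erasing side. Their members are all ATAC-seq peaks that overlapped one of the 7 gene bodies or the 20 kb on either side of it (mm10, GENCODE M21), without regard to the peaks' values. In the 8 peak lists together, 482 of 501728 peaks met this rule. After peaks of all libraries were merged into regions, they formed 105 of 123260 regions. Of these, 58 were listed in at least 4 of the 8 libraries, which passed the filter of the comparisons, 28 were listed in all 8, and 27 in a single library.

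Dnmt1 copies methylation onto the new DNA strand at CG dinucleotides after replication, and Uhrf1 brings it there by binding hemimethylated DNA. Dnmt3a and Dnmt3b place methyl groups on unmethylated DNA, while the Tet proteins oxidise 5-methylcytosine as a step towards its removal. In blood-forming cells Dnmt3a and Tet2 are known as regulators of stem cell self-renewal and as recurrently mutated genes of blood cancers.

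ATAC-seq, in which the Tn5 transposase cuts accessible DNA, had been applied to about 10000 sorted bone marrow cells per reaction from 4.5-month-old female mice of the strain 129Sv4/Jae x B6. Both populations lack lineage markers and carry c-Kit. LSK+ cells also carry Sca-1 and hold the hematopoietic stem and early multipotent progenitors, and LSK- cells lack Sca-1 and hold myeloid and erythroid progenitors. Each cell type was taken from wild-type (WT) mice and from XistΔ/Δ mice, in which a floxed Xist gene was deleted in the hematopoietic system by Vav-iCre, so that non-hematopoietic cells keep the gene. Each of the 4 groups (LSK+ WT, LSK+ XistΔ/Δ, LSK- WT and LSK- XistΔ/Δ) held 2 libraries. Replicate 1 of every group was sequenced on one instrument type and replicate 2 on another, so that replicate number and sequencer cannot be told apart.

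Lists held 29829 to 91590 peaks, and their background pileup, which rises with depth, ranged from 0.482 to 3.87 fragments. For a given cell type and replicate number, the XistΔ/Δ list was always longer than the WT list (4 of 4). A peak over Xist exon 1 was listed in 4 of 4 WT libraries and in 1 of 4 XistΔ/Δ libraries (LSK- replicate 2, percentile 26.9). Of 8 genes fixed as LSK- markers, 4 had a promoter region higher in LSK- cells by the replicate-blocked test described below (Gata1, Epor, Car1 and Ms4a3). Gata1 and Car1 passed the filter of the comparisons through LSK- libraries alone. The filter thus fixed their direction, and their calls and the count that includes them are descriptions. Of the 7 tested among 8 genes fixed as LSK+ markers, none was higher in LSK+ cells and 1, Slamf1, was lower. Among markers of lineage-positive cells, Cd3e, Cd4, Cd8a, Ly6g and Hbb-b1 had no promoter region in any library and Ms4a1 had one in 1 library. Itgam had a promoter region in LSK+ WT replicate 1 (percentile 68.98) and in every XistΔ/Δ library (54.55 to 70.81). No difference between groups was called at Itgam, which does not mean that its peak was absent.

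The value given for a region is the percentile of its strongest peak by -log10 p within its own library's list. A value of 100 marks the strongest peak of the list, and 0 means that no peak was listed. Because a long list adds weak peaks at its lower end, a peak of the same strength has a higher percentile in a longer list. Values at equal list length (the 29829 strongest peaks of each list) are therefore given beside the whole-list values for the promoters and for the regions that passed a test. Distances are from the most upstream start of the gene in the basic annotation to the summit of the region's strongest peak, positive in the direction of transcription. ATAC-seq on a sorted population is a bulk measurement, so fewer cells with an open site and a less open site in every cell cannot be told apart.

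The sequences below are those of 5 intronic regions at Dnmt3a and Tet1 called in the replicate-blocked comparison of LSK+ with LSK- cells. Dnmt3a +85.8 kb was called at equal list length but not on whole lists, and the filter fixed the direction of both Tet1 regions. Each sequence is the 300-base window centred on the summit, on the plus strand of GRCm38.p6 (the assembly that mm10 names), and none overlapped an annotated exon. Capitals mark matches, on either strand, to the core motifs searched: GGAAGT for ETS factors, TGTGGT for RUNX factors and AGATAA for GATA factors.
Dnmt3a +48.9 kb, chr12:3855735-3856034: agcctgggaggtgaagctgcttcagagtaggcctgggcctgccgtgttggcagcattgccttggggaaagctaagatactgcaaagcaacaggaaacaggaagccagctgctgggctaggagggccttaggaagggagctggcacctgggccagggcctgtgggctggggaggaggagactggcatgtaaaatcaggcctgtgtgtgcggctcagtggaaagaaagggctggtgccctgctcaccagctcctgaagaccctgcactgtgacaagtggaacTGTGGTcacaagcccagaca
Dnmt3a +61.8 kb, chr12:3868635-3868934: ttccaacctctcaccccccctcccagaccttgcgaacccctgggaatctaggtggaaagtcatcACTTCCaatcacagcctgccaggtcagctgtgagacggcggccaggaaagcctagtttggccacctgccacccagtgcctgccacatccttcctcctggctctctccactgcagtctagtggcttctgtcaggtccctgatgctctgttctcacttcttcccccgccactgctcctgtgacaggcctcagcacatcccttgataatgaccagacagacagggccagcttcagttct
Dnmt3a +85.8 kb, chr12:3892712-3893011: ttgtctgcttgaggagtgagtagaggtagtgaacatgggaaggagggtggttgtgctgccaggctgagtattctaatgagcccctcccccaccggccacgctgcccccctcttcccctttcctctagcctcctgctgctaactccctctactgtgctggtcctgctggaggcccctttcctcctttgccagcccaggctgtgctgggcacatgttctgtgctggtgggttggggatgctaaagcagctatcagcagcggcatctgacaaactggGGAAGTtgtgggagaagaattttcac
Tet1 +67.3 kb, chr10:62831690-62831989: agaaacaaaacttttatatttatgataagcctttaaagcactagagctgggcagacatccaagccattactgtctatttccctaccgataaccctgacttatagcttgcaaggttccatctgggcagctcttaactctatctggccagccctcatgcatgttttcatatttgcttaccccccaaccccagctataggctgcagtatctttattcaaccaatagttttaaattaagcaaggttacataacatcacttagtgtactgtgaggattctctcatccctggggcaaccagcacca
Tet1 +7.9 kb, chr10:62891098-62891397: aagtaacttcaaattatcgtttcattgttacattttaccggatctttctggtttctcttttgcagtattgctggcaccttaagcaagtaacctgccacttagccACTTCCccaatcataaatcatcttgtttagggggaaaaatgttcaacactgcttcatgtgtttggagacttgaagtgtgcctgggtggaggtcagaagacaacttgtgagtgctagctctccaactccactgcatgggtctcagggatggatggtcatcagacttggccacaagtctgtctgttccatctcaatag
The Dnmt3a +48.9 kb window held 1 RUNX match, the Dnmt3a +61.8 kb, Dnmt3a +85.8 kb and Tet1 +7.9 kb windows held 1 ETS match each, and the Tet1 +67.3 kb window held none of the motifs. These letters are common in open chromatin. The ETS letters were present in 35.6% of the windows of all 60444 regions tested and in 22 of the 58 member windows (37.9%). The RUNX letters were present in 30.4% and in 16 (27.6%), the GATA letters in 16.8% and in 7 (12.1%), and the NRF1 letters (GCATGCGC) in 1.67% and in 3 (5.17%). The 3 NRF1 windows were those of the Dnmt1 promoter, the Ccar1 promoter beside Tet1 and the Plin3 promoter beside Uhrf1. A match describes the letters in the window and nothing more.

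The main Dnmt1 promoter was among the strongest sites of every library, and the Uhrf1 promoter was high in all libraries but one. The main Dnmt1 promoter (chr9:20952142-20953363, 7.0 kb downstream of the most upstream annotated start) was at percentiles 91.3 and 91.5 in LSK+ cells from WT mice (replicates 1 and 2, the order used throughout) and at 92.9 and 97.2 in those from XistΔ/Δ mice. The LSK- libraries stood at 94.9 and 94.0 (WT) and 97.4 and 97.2 (XistΔ/Δ). The whole range was 91.3 to 97.4, and the LSK+ and LSK- values overlapped. This region covers 2 of the 3 RefSeq starts of Dnmt1. The upstream start had a weaker region 1.8 kb before it (chr9:20961425-20961979). That region was not listed in the second WT library of either cell type, and was between 43.0 and 66.9 in the other 6 libraries. Uhrf1, the partner of Dnmt1, had a single promoter region (chr17:56302981-56304541) that covers both of its RefSeq starts. This region also lies within 3 kb of a start of Arrdc5. The LSK+ libraries stood at 91.3 and 74.2 (WT) and 91.7 and 92.7 (XistΔ/Δ), and the LSK- libraries at 88.7 and 88.0 (WT) and 93.5 and 94.4 (XistΔ/Δ). One value, LSK+ WT replicate 2, stood below the other 7, and this library had the shortest list.

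Both de novo genes had weaker promoters than the maintenance genes, and at Dnmt3a the alternative promoters ran in different ways. The promoter of the long isoform (chr12:3806175-3807052) was not listed in LSK+ WT replicate 1 or LSK- WT replicate 1. It was at 37.0 and 62.4 in the replicate 2 libraries of the same groups. The XistΔ/Δ libraries stood at 57.9 and 78.1 (LSK+) and 76.3 and 84.7 (LSK-). Replicate 2 was the higher library in each of the 4 groups, and values within a group lay up to 62.4 points apart. A weaker region 0.8 kb past this start (chr12:3807648-3807997) was listed in 3 libraries, and 2 more within 3 kb of it were listed in 1 library each. The internal promoter, next to the start of the short Dnmt3a isoform (chr12:3890853-3891669, 84.5 kb into the gene) was listed in every library. The LSK+ libraries stood at 70.1 and 45.2 (WT) and 78.3 and 78.8 (XistΔ/Δ), and the LSK- libraries at 74.3 and 74.9 (WT) and 78.2 and 79.1 (XistΔ/Δ). Without LSK+ WT replicate 2, the other 7 libraries ranged from 70.1 to 79.1. The Dnmt3b promoter (chr2:153648936-153650250) stood at 54.9 and 48.4 (WT) and 61.8 and 81.4 (XistΔ/Δ) in LSK+ cells and at 59.0 and 61.9 (WT) and 78.4 and 76.0 (XistΔ/Δ) in LSK- cells. Of the XistΔ/Δ values, only the 61.8 of LSK+ replicate 1 did not exceed every WT value on these whole lists.

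The erasers differed in how their starts were marked. Tet2 had 1 promoter region in at least 4 libraries (chr3:133543809-133545464). Its LSK+ libraries stood at 92.7 and 81.5 (WT) and 90.9 and 90.5 (XistΔ/Δ), and its LSK- libraries at 94.2 and 84.4 (WT) and 95.7 and 90.2 (XistΔ/Δ). Replicate 1 was the higher library in each group. Tet3 had an internal and an upstream promoter. The internal one, over its RefSeq start (chr6:83441185-83442171, +14.7 kb), stood at 83.2 and 83.9 (WT) and 83.4 and 92.1 (XistΔ/Δ) in LSK+ cells and at 89.2 and 84.6 (WT) and 94.6 and 91.6 (XistΔ/Δ) in LSK- cells. The upstream one (chr6:83456261-83457127, -0.2 kb) stood at 53.0 and 83.3 (WT) and 49.8 and 89.4 (XistΔ/Δ) in LSK+ cells and at 58.0 and 84.1 (WT) and 73.0 and 86.0 (XistΔ/Δ) in LSK- cells. Its replicate 2 libraries lay between 83.3 and 89.4 and its replicate 1 libraries between 49.8 and 73.0, with no overlap. Regions on either side of it (-0.9 and +0.9 kb) were weaker, with no value above 20.5 and 45.1. Tet1 had no region within 3 kb of a start in the basic annotation. Its RefSeq start (chr10:62887324, minus strand) lay inside a region 13.0 kb into the annotated gene (chr10:62885863-62887459). That region stood at 64.3 and 57.9 (WT) and 56.2 and 53.4 (XistΔ/Δ) in LSK+ cells and at 74.6 and 27.8 (WT) and 50.6 and 41.3 (XistΔ/Δ) in LSK- cells. It was listed in every library, below the main promoter values of Dnmt1, Uhrf1, Tet2 and Tet3 in each of them.

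**Figure D1:**
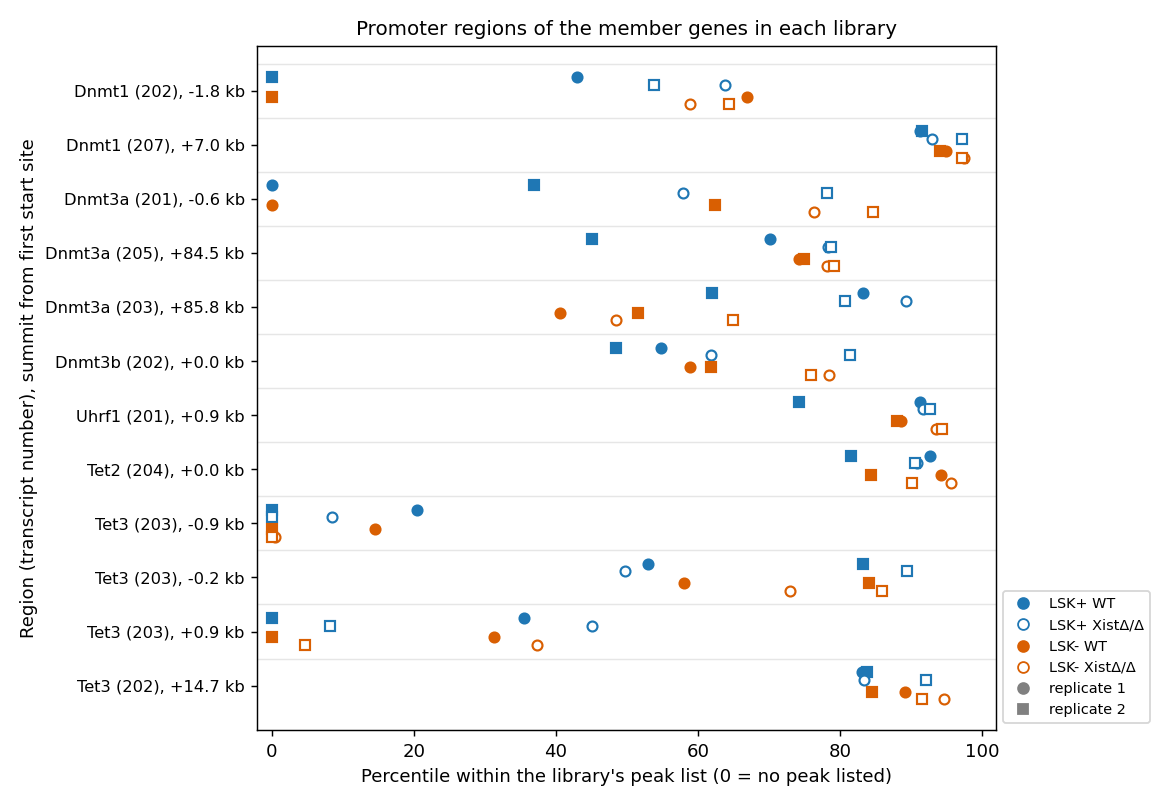
Percentile within the library's peak list (x axis, 0 where no peak was listed) of the 12 regions with a start of a member gene within 3 kb and listed in at least 4 libraries. Each point is a library, colour gives the cell type, filled points are WT and open points XistΔ/Δ, and circles and squares are replicates 1 and 2. Labels give the gene, the number of its nearest transcript and the distance in kb. Dnmt1 +7.0 kb lies between 91.3 and 97.4 in every library, while at Tet3 -0.2 kb replicates 1 (up to 73.0) and replicates 2 (from 83.3) separate.

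Part of these levels moved with list length. Among the 29829 strongest peaks of each list, the Dnmt1 promoter was between 80.5 and 94.1, the Uhrf1 promoter between 73.0 and 88.2, the Tet2 promoter between 74.7 and 86.7 and the internal Tet3 promoter between 54.1 and 83.9. The internal Dnmt3a promoter was between 33.0 and 68.4. The Dnmt3b promoter stood at 4.08 and 48.4 (WT) and 0 and 60.6 (XistΔ/Δ) in LSK+ cells and at 2.09 and 51.9 (WT) and 33.7 and 49.6 (XistΔ/Δ) in LSK- cells, so that its XistΔ/Δ and WT values overlapped widely and every replicate 2 value lay above every replicate 1 value. The long-isoform promoter of Dnmt3a remained listed in the 4 replicate 2 libraries (37.0 to 67.9) and in 1 replicate 1 library (27.4). The upstream Tet3 promoter was between 70.6 and 83.3 in replicate 2 libraries and at most 17.0 in replicate 1 libraries. The region over the Tet1 RefSeq start was listed in 5 libraries (1.38 to 57.8), and the Dnmt1 region at -1.8 kb in 3 (2.17 to 25.2).

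Compared with the strongest promoter region of each of 16337 protein-coding genes that had one (of 21728 annotated), whose median mean percentile was 79.3, the Dnmt1 promoter had a mean of 94.6 over the 8 libraries. Tet2 had 90.0, Uhrf1 89.3, Tet3 87.8, Dnmt3a 72.4 and Dnmt3b 65.2. Among all genes these means stood at the percentiles 83.1 (Dnmt1), 70.3 (Tet2), 68.7 (Uhrf1), 65.2 (Tet3), 42.4 (Dnmt3a) and 37.0 (Dnmt3b). The regions of Uhrf1, Tet2 and Dnmt3b also lie within 3 kb of a start of another gene (Arrdc5, Gm42567 and Dnmt3bos). Their values are therefore not those of the member gene alone. Neighbours in this order overlapped in their library values, except Tet3 (83.2 to 94.6) and Dnmt3a (45.2 to 79.1), which did not. Each of the 6 main promoters was listed in all 8 libraries, as were 73.2% of the promoters of all these genes. The gene whose promoter percentiles lay nearest over the 8 libraries was Fitm2 for Dnmt1 (mean absolute difference 0.441 points), Agk for Tet2 (0.738), Tmem86a for Uhrf1 (0.980), Atg4c for Tet3 (1.29), Znrf1 for Dnmt3a (2.24) and Dis3l2 for Dnmt3b (3.02).

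To ask whether accessibility at these genes differs between stem and progenitor cells and committed progenitors, LSK+ libraries were compared with LSK- libraries over both genotypes. The promoter regions of the member genes, of which Tet1 had none by the 3 kb rule, gave no call on whole lists. The differences that passed a test on whole lists lay in introns of Dnmt3a and Tet1 and near a start of Bola3 beside Tet3. For 3 of these 5 regions (Tet1 +7.9 and +67.3 kb and the Bola3 region), all 4 libraries that list them are of the higher cell type, so that the filter itself fixed their direction and the counts that include them are descriptions. Without a term for the replicate number, limma with Benjamini-Hochberg adjustment called 0 of the 58 member regions and 0 of all 60447 regions (0%), although 6 and 10620 had an unadjusted p under 0.05. With the replicate number as a block, limma called 3 member regions higher in LSK+ cells, against 7.21% of all regions, and 2 higher in LSK- cells, against 10.3%. The member shares, 5.17% and 3.45%, did not exceed this background. The percentiles of LSK+ and LSK- libraries did not overlap in 3 member regions higher in LSK+ (4.18% of all regions) and 2 higher in LSK- (7.28%), which were the same 5 regions. The median difference of LSK+ minus LSK- was -0.328 points over the member regions and -0.946 over all regions.

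Among the writers, both regions called on whole lists lay in the gene body of Dnmt3a. The intronic region at +48.9 kb (chr12:3855591-3856450) stood at 97.7 and 91.7 (WT) and 97.8 and 94.5 (XistΔ/Δ) in LSK+ cells, and at 87.2 and 82.6 (WT) and 86.5 and 85.6 (XistΔ/Δ) in LSK- cells. All 4 LSK+ libraries lay above all 4 LSK- libraries. The difference was 9.94 ± 1.94 points (SE), with an adjusted p of 0.00287 in the blocked limma fit and 0.0751 without the block. It was 10.9 points within replicate 1 and 8.99 within replicate 2. With lists of equal length it was 23.3 ± 3.62 points (SE, blocked limma, adjusted p = 0.00101). The recovered number of fragments at the summit was 148 and 80 (WT) and 233 and 198 (XistΔ/Δ) in LSK+ cells and 78 and 69 (WT) and 157 and 87 (XistΔ/Δ) in LSK- cells, before any scaling for depth.

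A weaker intronic region at Dnmt3a +61.8 kb (chr12:3868492-3869011) stood at 45.7 and 24.0 (WT) and 71.8 and 60.9 (XistΔ/Δ) in LSK+ cells. No WT library of LSK- cells listed it, and the XistΔ/Δ libraries of these cells stood at 9.80 and 18.2. The values of the cell types did not overlap. The difference was 43.6 ± 9.60 points (SE, blocked limma, adjusted p = 0.00592, without the block 0.0951), with 53.8 within replicate 1 and 33.3 within replicate 2. It was among the 29829 strongest peaks in 3 LSK+ libraries and in no LSK- library, too few to be tested at equal list length. The region at Dnmt3a +85.8 kb (chr12:3892033-3893239), downstream of the start of the short isoform and within 3 kb of it, stood at 83.3 and 62.0 (WT) and 89.3 and 80.7 (XistΔ/Δ) in LSK+ cells. In LSK- cells it stood at 40.5 and 51.6 (WT) and 48.5 and 65.0 (XistΔ/Δ). The LSK+ library was the higher one in 4 of 4 pairs, but LSK+ WT replicate 2 lay below LSK- XistΔ/Δ replicate 2. The difference of 27.4 ± 9.43 points (SE) had an adjusted p of 0.0568 in the blocked limma fit. Lists of equal length gave 47.6 ± 10.9 points (SE, adjusted p = 0.00681 in the same kind of fit). The short-isoform promoter next to it had no such difference (-8.54 points, higher in LSK+ in 1 of 4 pairs).

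The other Dnmt3a regions did not pass the test on percentiles. The strong intronic region at +64.1 kb (chr12:3870778-3871884) was at 91.9, 71.6, 84.0 and 90.0 in the LSK+ libraries and at 89.9, 60.7, 70.3 and 81.8 in the LSK- libraries, in the order WT and then XistΔ/Δ. It was higher in LSK+ in 4 of 4 pairs, by 8.70 points on average. The region at +27.6 kb (chr12:3834356-3835256) ranged from 40.7 to 72.8 in LSK+ and from 14.6 to 61.5 in LSK- cells. A region at +54.9 kb (chr12:3861710-3862610), at the start of the antisense gene Dnmt3aos, was listed in 6 libraries with no value above 41.1. The upstream region at -15.1 kb (chr12:3791440-3792420) was between 89.4 and 96.1 in every library and differed between the cell types by -0.177 points on average.

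**Figure D2:**
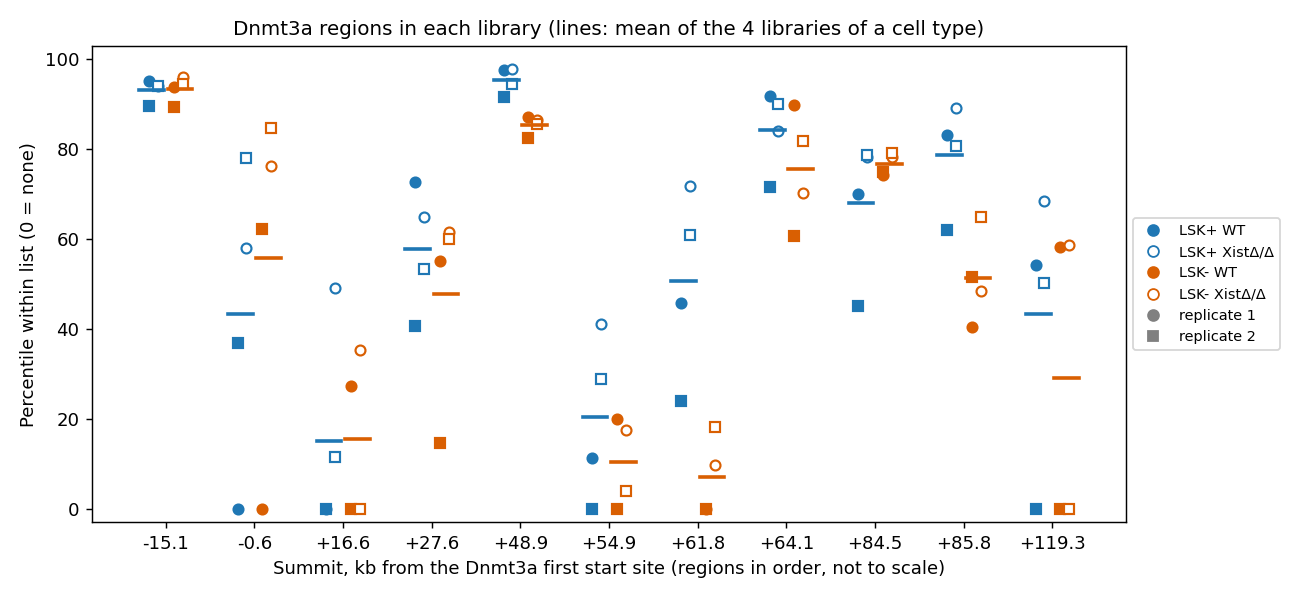
The 11 Dnmt3a regions listed in at least 4 libraries, placed in their order along the gene by the summit's distance from the first start in kb (x axis, not to scale), with the percentile within the list of each library (y axis, 0 where no peak was listed). Points are libraries as coloured by cell type, filled for WT and open for XistΔ/Δ, circles and squares for replicates 1 and 2, and lines are means of the 4 libraries of a cell type. The LSK+ and LSK- points do not overlap at +48.9 kb (means 95.4 and 85.5) and at +61.8 kb (50.6 and 7.01).

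Tet1, the eraser with the lowest marking at its RefSeq start, held intronic regions of opposite kind. At Tet1 +67.3 kb (chr10:62831020-62832307), no LSK+ library had a peak. The LSK- libraries stood at 88.9 and 31.3 (WT) and 88.5 and 36.5 (XistΔ/Δ). The difference of LSK+ minus LSK- was -61.3 ± 11.8 points (SE, blocked limma, adjusted p = 0.00261, without the block 0.0891), with -88.7 within replicate 1 and -33.9 within replicate 2. At Tet1 +7.9 kb (chr10:62890942-62891572) the order was the reverse. LSK+ libraries stood at 69.9 and 19.6 (WT) and 78.1 and 49.9 (XistΔ/Δ), and no LSK- library had a peak. The difference was 54.4 ± 10.4 points (SE, blocked limma, adjusted p = 0.00250, without the block 0.0777), with 74.0 within replicate 1 and 34.8 within replicate 2. Both values are descriptions, since each region passed the filter through the 4 libraries of a single cell type. Each was listed in 3 libraries at equal list length, too few to be tested there.

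Other Tet1 regions did not pass. The region at +33.7 kb (chr10:62865134-62865848) was between 60.3 and 86.7 in LSK+ and between 76.9 and 88.2 in LSK- cells. The region at +35.3 kb (chr10:62863540-62864053) stood at 33.3 and 1.47 (WT) and 74.7 and 54.0 (XistΔ/Δ) in LSK+ cells and at 45.1 and 38.5 (WT) and 49.8 and 53.7 (XistΔ/Δ) in LSK- cells, the widest spread among the Tet1 regions listed in all 8 libraries. A region at +51.6 kb was listed in all 4 LSK+ libraries (1.41 to 50.8) and in 1 LSK- library (17.6), and one at -12.2 kb in 3 LSK+ libraries (40.7 to 53.9) and 2 LSK- libraries (7.30 and 19.9). At the borders of the locus, the Ccar1 promoter was between 94.3 and 98.9 and the Slc25a16 promoter between 79.5 and 92.4.

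Beside Tet3, a region in the neighbouring gene Bola3, within 3 kb of an annotated start (chr6:83351651-83352265, +104.4 kb), was listed in no LSK+ library. Its LSK- libraries stood at 58.6 and 30.2 (WT) and 83.0 and 62.7 (XistΔ/Δ). The difference was -58.6 ± 9.77 points (SE, blocked limma, adjusted p = 0.00122, without the block 0.0552), with -70.8 within replicate 1 and -46.5 within replicate 2. It too passed the filter through LSK- libraries alone, so that this is a description. With equal list lengths the difference was -20.7 ± 8.00 points (SE, adjusted p = 0.0723, blocked limma). A stronger Bola3 promoter region (chr6:83349091-83349890) was between 75.9 and 93.2 in every library, with overlapping cell types. Inside Tet3, the intronic region at +74.4 kb (chr6:83381580-83382521) was between 62.8 and 94.7 in LSK+ and between 83.0 and 95.7 in LSK- cells. The regions at +46.2 and +43.2 kb and at +5.3 kb were weaker, with no value above 54.7. The largest difference at Tet2 was at +80.9 kb, past its 3' end (chr3:133463025-133463587). This region was not listed in LSK+ WT replicate 2, was between 52.0 and 69.8 in the other LSK+ libraries and between 39.4 and 86.1 in the LSK- libraries. The difference of -22.6 points did not pass (adjusted p = 0.234, blocked limma). Inside Tet2, the region at +13.5 kb was not listed in the second WT library of either cell type and had no value above 66.1. At Uhrf1 the largest difference was at -19.9 kb (chr17:56283345-56283651), listed in 2 LSK+ libraries (22.2 and 35.2) and 3 LSK- libraries (48.5 to 60.6), and it did not pass (-27.5 points, adjusted p = 0.110, blocked limma).

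At equal list length, 33 member regions could be tested. The blocked limma fit called 3 of them higher in LSK+ cells, against 15.1% of all 29558 regions, and 1 higher in LSK- cells, against 12.1%. Besides Dnmt3a +48.9 and +85.8 kb these were an upstream region of Dnmt3b and an intronic region of Dnmt1. The Dnmt3b region (chr2:153638948-153639856, -10.0 kb) was at 76.6, 13.1, 72.3 and 58.2 in the LSK+ libraries and at 34.5, 0, 44.5 and 7.3 in the LSK- libraries on whole lists, in the order WT and then XistΔ/Δ. At equal list length its difference was 24.5 ± 8.37 points (SE, blocked limma, adjusted p = 0.0454). There it was listed in the 4 LSK+ libraries alone (11.45 to 50.31). The filter thus fixed its direction at equal list length, and its difference and the counts that include it are descriptions. The Dnmt1 region (chr9:20916144-20916631, +43.5 kb) was at 60.4, 9.86, 56.8 and 53.8 in LSK+ and at 68.9, 56.1, 76.9 and 74.5 in LSK- libraries on whole lists. At equal list length its difference was -29.6 ± 8.54 points (SE, blocked limma, adjusted p = 0.0221). On whole lists neither passed (adjusted p = 0.0617 and 0.189, blocked limma).

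Percentiles leave little room for differences among the strongest sites, so the summit pileup was compared as well, on a log2 scale centred on each library's median, over the 28 member regions listed in all 8 libraries. The blocked limma fit called 5 of them higher in LSK+ cells, against 16.5% of all 21360 such regions, and 6 higher in LSK- cells, against 19.5%. The member shares were 17.9% and 21.4%. Dnmt3a held 3 of the 5, at +48.9 kb (log2 difference 0.94 ± 0.16, SE, adjusted p = 1.06e-07), +85.8 kb (0.88 ± 0.18, adjusted p = 3.32e-05) and +64.1 kb (0.63 ± 0.17, adjusted p = 0.00191, all by limma). The others were the region over the Tet1 RefSeq start (0.52 ± 0.21, adjusted p = 0.0393, limma) and one 17.0 kb upstream of Tet3 (chr6:83473000-83473703). On whole lists this Tet3 region had a mean percentile of 44.6 in LSK+ and 20.3 in LSK- libraries and was not called. It was higher in LSK+ in 4 of 4 pairs, by 12.9 points within replicate 1 and 35.7 within replicate 2. The 6 higher in LSK- cells included the promoters of Dnmt1 (-0.46 ± 0.16, adjusted p = 0.0142) and Uhrf1 (-0.38 ± 0.16, adjusted p = 0.0468, both by limma), the Dnmt1 intron, Tet3 +74.4 kb and the promoters of the neighbours Eif3g and Ccar1. The median of all regions was -0.10 on this scale, relative to which these values should be read. Without the block only Dnmt3a +48.9 kb passed (adjusted p = 0.0448), and the other 10 had adjusted p-values from 0.0574 to 0.551 (limma), with 0.518 for the Dnmt1 promoter and 0.449 for the Uhrf1 promoter. This comparison was chosen after the data had been seen.

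**Figure D3:**
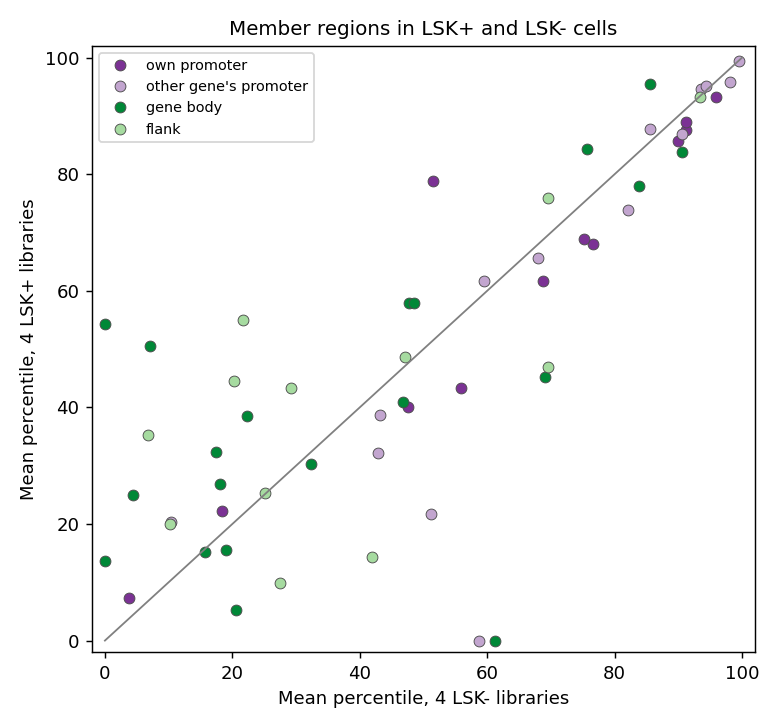
Mean percentile of the 58 member regions over the 4 LSK- libraries (x axis) and the 4 LSK+ libraries (y axis), coloured by class. Each point is a region and the line marks equal means. The own promoter farthest from the line is Dnmt3a +85.8 kb (51.4 in LSK- and 78.8 in LSK+), and the Tet1 region at +67.3 kb and the region in Bola3 lie at 0 in LSK+ with 61.3 and 58.6 in LSK-.

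The XistΔ/Δ and WT libraries were then compared over both cell types, to ask whether loss of Xist changes these autosomal genes. No promoter of the 7 genes was called, and a single flank region passed in the blocked fit. Without the block, limma called 0 of 58 member regions and 0 of all 60447 (0%), where 5 and 5069 had an unadjusted p under 0.05. With the replicate block, 1 member region was higher in XistΔ/Δ, against 0.437% of all regions. This region (chr17:56339016-56339281) lies within Kdm4b, 35.8 kb from the Uhrf1 start. It was not listed in any WT library, and its XistΔ/Δ libraries stood at 51.8 and 49.3 (LSK+) and 56.0 and 44.5 (LSK-). It was 53.9 points higher within replicate 1 and 46.9 within replicate 2. The difference was 50.4 ± 8.63 points (SE, blocked limma, adjusted p = 0.0305, without the block 0.504). It passed the filter through XistΔ/Δ libraries alone, which had the longer lists, and was in no list cut to equal length. The filter thus fixed its direction, and its difference is a description. The median difference of XistΔ/Δ minus WT was 12.5 points over the member regions and 12.7 over all regions on whole lists. With lists cut to equal length it was -0.782 over members and -0.0138 over all regions, and limma called 0 of 33 member regions with or without the block (unadjusted p under 0.05 in 1 in each fit).

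By gene, the region with the largest difference on whole lists was, at Dnmt1, one near S1pr2 (chr9:20973707-20974050, 33.6 points) and, at Dnmt3a, the long-isoform promoter (49.4 points, 67.1 within replicate 1 and 31.7 within replicate 2). At Dnmt3b it was an intronic region at +19.5 kb (33.5), at Tet1 the region at +35.3 kb (28.4), at Tet2 a region past the 3' end at +80.9 kb (27.6) and at Tet3 an intronic region at +46.2 kb (31.4). None of these passed (adjusted p from 0.0905 to 0.158 in the blocked limma fit), and the differences were smaller at equal list length where they could be tested: 14.8 ± 8.92 points (SE) at the long-isoform promoter of Dnmt3a, 2.89 at Tet1 +35.3 kb and 7.41 at Tet2 +80.9 kb (adjusted p of 1 for each, blocked limma). The effect of the deletion in LSK+ cells minus that in LSK- cells, tested as an interaction, gave 0 calls among the 58 member regions in either fit (limma, unadjusted p under 0.05 in 0 without and 1 with the block).

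**Figure D4:**
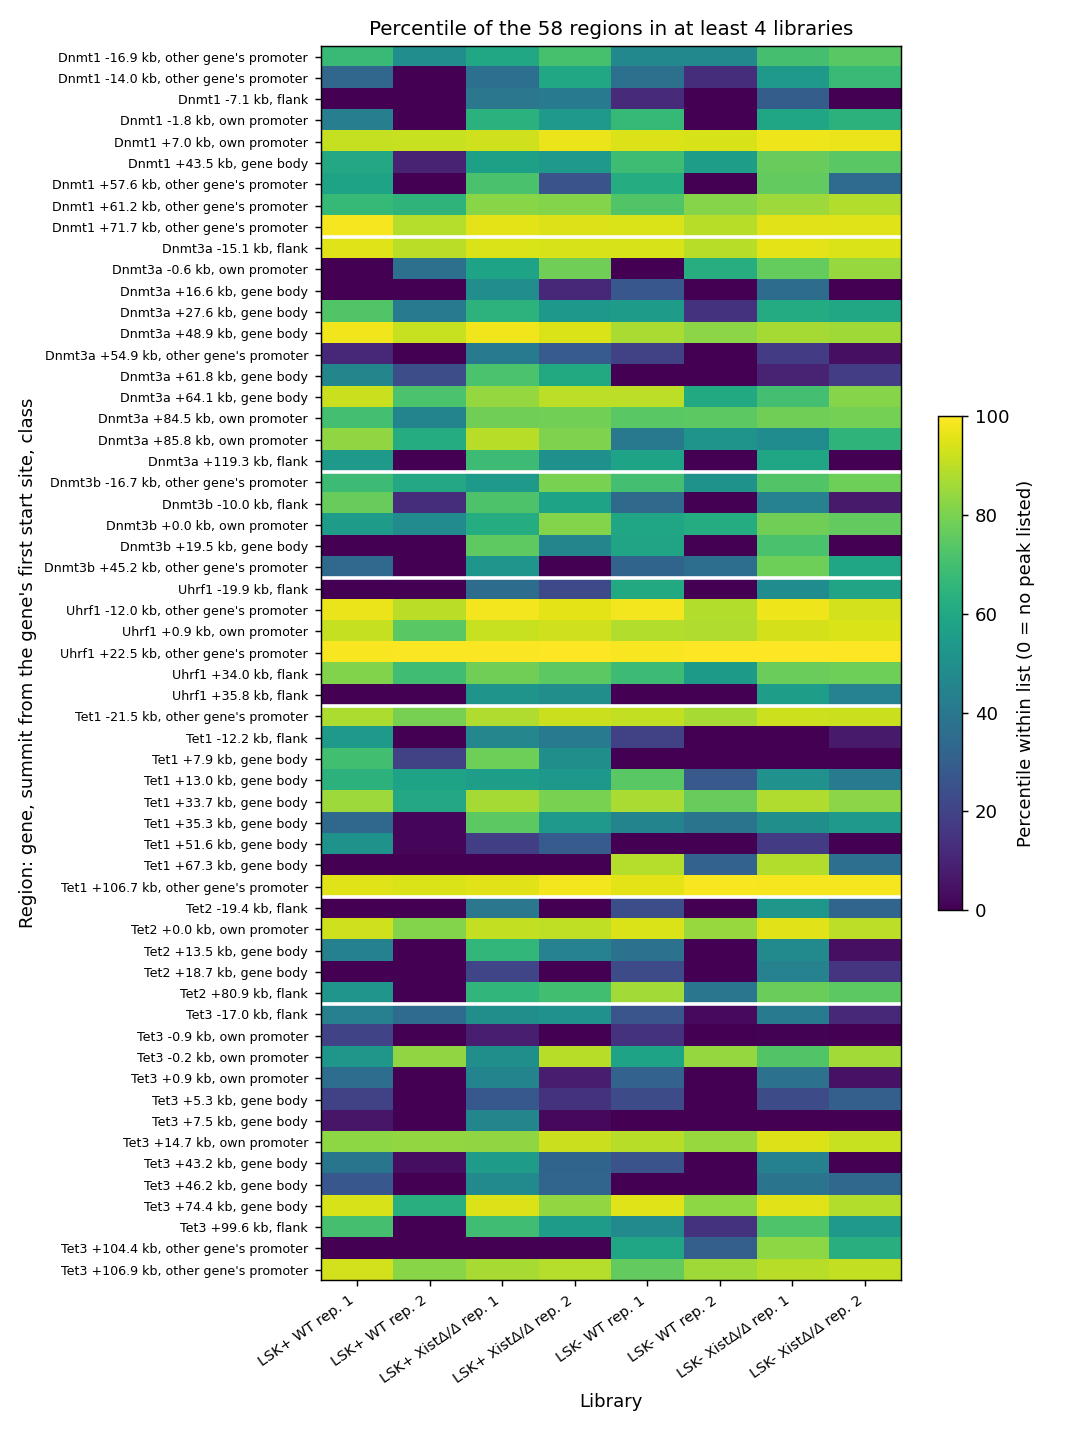
Percentile within the list (colour, 0 where no peak was listed) of the 58 member regions (rows, ordered by gene and by distance of the summit from the first start in kb) in the 8 libraries (columns). The Tet1 regions at +7.9 and +67.3 kb and the Tet3 region at +104.4 kb are at 0 in all libraries of a cell type, and LSK+ WT replicate 2 and LSK- WT replicate 2, with the shortest lists (29829 and 37578 peaks), hold the most empty cells.

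The density of peaks at the 7 loci did not separate the groups. Libraries listed 38 to 87 peaks there, or 8.24 to 12.7 per 10000 listed peaks. LSK+ cells had 9.91 and LSK- cells 9.95 per 10000 on average (difference -0.0406, two-sided exact permutation test, p = 1). XistΔ/Δ cells had 9.45 and WT cells 10.4 (difference -0.962, exact permutation p = 0.5). With 36 assignments the smallest p that this test allows is 0.0556, so it could not have reached 0.05. Tet3 (25 regions, 13 in at least 4 libraries) and Dnmt3a (21 and 11) had the most regions. Uhrf1 had the fewest in all (7), and Dnmt3b and Tet2 the fewest in at least 4 libraries (5 each). Of the 58 regions, 12 lay at promoters of the member genes, 14 at promoters of other genes, 20 elsewhere in gene bodies and 12 in the flanks. The flank of Uhrf1 held the strongest site of all, the Kdm4b promoter (chr17:56325378-56326332), between 98.9 and 100 in every library. The Ppan promoter beside Dnmt1 was between 89.0 and 98.6 and the Plin3 promoter beside Uhrf1 between 88.6 and 98.1. Weaker neighbouring sites listed in at least 6 libraries ranged more widely. Beside Dnmt1 they were an Eif3g site at +57.6 kb (0 to 75.9) and S1pr2 sites at -14.0 kb (0 to 67.4) and -16.9 kb (46.6 to 74.4). Beside Dnmt3b they were the Commd7 promoter (51.2 to 80.0) and a site at the start of Dnmt3c, a germline methyltransferase gene (0 to 78.0). Uhrf1 had a site in Kdm4b at +34.0 kb (54.3 to 81.0) and Tet3 one in Bola3 at +99.6 kb (0 to 72.3).

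Replicate number moved with base composition at these genes. In the 8 member regions with under 45% G+C in the summit window, replicate 1 exceeded replicate 2 by a median of 25.9 points, in the 33 with 45 to 60% by 13.8 points, and in the 17 with 60% or more the median was -0.460 points. Over all regions the medians were 25.7, 17.7 and 0.0291 points. The regions furthest to the negative side were the long-isoform promoter of Dnmt3a (75.0% G+C, -32.0 points) and the upstream promoter of Tet3 (80.7% G+C, 28 and 45 CG dinucleotides in the windows of the 2 promoters, -27.3 points). The parts of sequencer, depth and base composition in these differences were not tested.

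**Figure D5:**
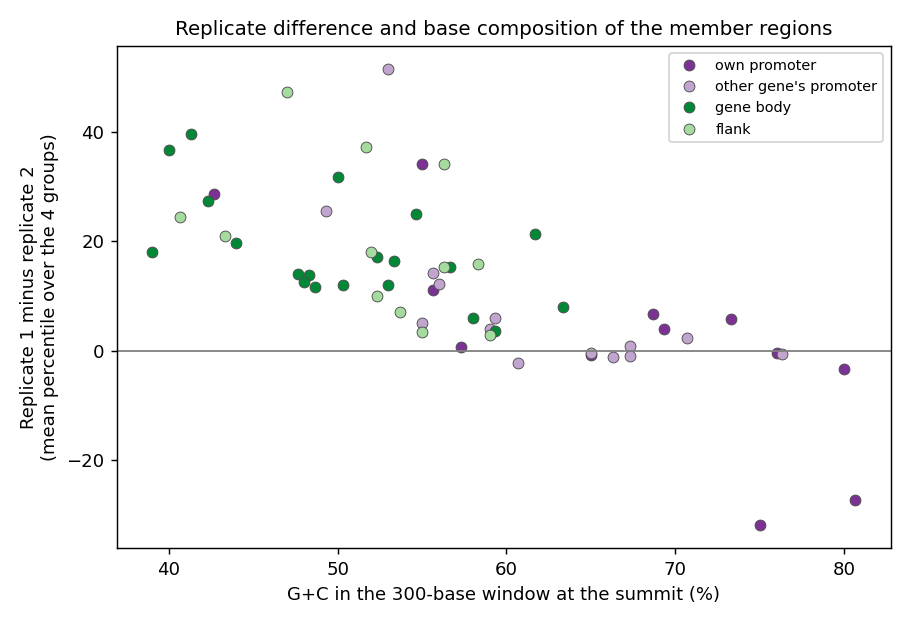
G+C content of the 300-base summit window in percent (x axis) against the replicate 1 minus replicate 2 difference in percentile, averaged over the 4 groups (y axis), for the 58 member regions, coloured by class. Each point is a region. Regions under 45% G+C all lie above 0, and the 2 lowest points are the Dnmt3a long-isoform promoter (-32.0) and the upstream Tet3 promoter (-27.3).

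Among the other genes of the pathway, 37 were listed for their roles as partners of the methyltransferases, readers of methylated DNA, repair and demethylation factors, suppliers of oxoglutarate and methyl donors, and partners of the Tet proteins. All 37 had a promoter region and 35 could be tested. In the blocked limma fit none was called higher or lower in LSK+ than in LSK- cells or in XistΔ/Δ than in WT cells, where 376 (2.55%) of 14762 protein-coding promoters were higher and 590 lower in LSK+. The median difference of LSK+ minus LSK- was -0.200 points over the 35 and -1.25 over all promoters. The median of the mean percentiles of the 35 tested was 94.2. Zbtb38 (listed in 1 library) and Wt1 (in 3, none above 29.6) were not tested and are left out of these medians. It was 95.1 over the readers, which include the methyl-CpG binding proteins, and 96.1 over the genes of oxoglutarate and methyl donor supply, and 79.1 over the partners of the methyltransferases and 81.3 over the 4 Tet partners tested.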

How the data were processed

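ATAC-seq peak lists of 8 libraries were analysed (4 groups of 2, from the labels). The authors trimmed reads (Trim Galore), aligned them to mm10 (Bowtie2 2.3.5.1), removed reads of mapping quality under 30 and mitochondrial reads (SAMtools 1.10) and called peaks per library from fragments at q 0.01 (MACS2 2.2.7.1). Removal of duplicates and a Tn5 shift are not given in the sources used here. The deposited columns hold fold enrichment (a ratio), -log10 p-values and q-values, a score and the summit offset. Read counts were not analysed here.

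Peaks on chromosomes 1 to 19 and X were merged (overlap of 1 bp or more) and regions in at least 4 of 8 libraries kept. Percentiles by -log10 p were compared with limma 3.58.1 (R 4.3.3, trend, all groups in 1 fit, Benjamini-Hochberg over all regions). The replicate numbers pair the libraries: differences of replicate 1 minus replicate 2 correlated over regions between groups at 0.162 to 0.464 in all 6 pairs of groups. Blocked values are therefore given too. The labels do not name the animals, so p-values measure the spread between these libraries. Summit pileups were solved from fold and -log10 p (at least 97.9% of peaks per list matched). The fits were tested on simulated data. Depth sets which weak peaks are listed, so 0 means not listed.

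Named were all member regions at own promoters, those in at least 6 libraries, those called, and those with the largest differences per gene. A gene's promoter was its strongest region within 3 kb of a start. Small RNA genes were not counted as neighbours. Members and lists were chosen with earlier results of these data known. Alternatives were ranking by fold, equal list length, a q filter, 50% coverage, regions in 2 libraries, the block and leaving out each library. Equal length with the block and the pileup were added after the data were seen. One marker of lineage-positive cells is not reported here.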

Additional observations from a re-analysis of the deposited data

Results flagged for a closer look

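The Tet1 region at +35.3 kb (chr10:62863540-62864053) had opposite directions in the genotypes. In WT both LSK+ libraries (33.3 and 1.47) lay below both LSK- libraries (45.1 and 38.5), and in XistΔ/Δ both LSK+ libraries (74.7 and 54.0) lay above both LSK- libraries (49.8 and 53.7), the latter by 0.206 points for replicate 2. The difference between the genotypes' effects, tested as an interaction, was 36.9 ± 31.5 points (SE, limma, unadjusted p = 0.267, adjusted p = 1). With the replicate block the unadjusted p was 0.147 and the adjusted p 1 (limma). Such opposite directions were found in 1 of 58 member regions and in 0.486% of all 60447 regions, and for the genotype contrast in 0 members and 0.169% of all regions.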

How the results depend on the processing

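Without the block, 0 of 58 member regions were called between the cell types. With the replicate block 5 were called (10606 of all 60447 regions). These include Tet1 +7.9 and +67.3 kb and the region in Bola3, whose direction the filter fixed. At equal list length 2 of 33 were called (4047 of all 29558), and 4 with the replicate block (8029). These 4 include the upstream region of Dnmt3b, whose direction the filter fixed at that length. For the log2 summit pileup 1 of 28 was called (1010 of all 21360), and 11 with the replicate block (7701). The count was 0 when ranked by fold, with -log10 q of at least 5, with 50% coverage and with regions in 2 libraries. Leaving out 1 library gave 0 to 2 calls: 2 without LSK- WT replicate 2 (Tet1 +67.3 kb and the region in Bola3) and 1 without LSK- XistΔ/Δ replicate 2 (the region in Bola3). Both regions passed the filter through LSK- libraries alone, so these calls are descriptions. The genotype count was 0, and 1 with the replicate block (266 of all 60447 regions). That region passed the filter through XistΔ/Δ libraries alone. The interaction count was 0 in every fit. The difference in peaks per 10000 at the loci between the cell types, -0.0406 with and without the replicate block, was 0.419 at equal list length and 0.287 with -log10 q of at least 5, and -1.02 to 0.935 when 1 library was left out, positive without LSK+ WT replicate 1, LSK+ XistΔ/Δ replicate 1, LSK- WT replicate 2 or LSK- XistΔ/Δ replicate 2. That between genotypes, -0.962 with and without the replicate block, was -0.0838 at equal list length (exact permutation p = 1), -1.005 with -log10 q of at least 5, and -1.94 to 0.0139 when 1 library was left out, turning sign without LSK+ WT replicate 2 alone. The differences followed at 9 regions, chosen by calls in the blocked fits, kept their direction under every alternative that gave a value. At Tet1 +7.9 and +67.3 kb, the region in Bola3 and the called region in Kdm4b, the filter fixed the direction, so no alternative could have reversed it. At the upstream region of Dnmt3b the filter fixed the direction at equal list length. No setting without the block, equal list length, the pileup or a left-out LSK- library gave a call. The mean percentile over libraries moved by more than the spread between replicates in 43 of 58 regions at equal list length, 17 when ranked by fold, 15 with 50% coverage and 0 with the q filter. Shallow lists leave weak sites unlisted, which limits statements on absence. The causes of these changes were not tested.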
